A study of Mus musculus with 92 samples.

Results

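Fetal intestinal spheroids are hollow epithelial cultures grown from fetal mouse intestine. The libraries described here are the 6 flox/flox and the 5 flox/+ spheroid cultures treated with 4-hydroxytamoxifen (4-OHT), taken by their sample titles: 11 of the 92 libraries of the series. The series measured poly(A) RNA by sequencing in mouse intestine, in adult intestinal organoids and in these spheroids. All cultures used here carried the recombinase CreER at the Rosa26 locus, a ubiquitously active locus, and were kept in ENR medium (EGF, Noggin and R-spondin). In flox/flox cultures both copies of Eif4g2 were flanked by loxP sites, and in flox/+ cultures 1 copy was. Cultures received 0.5 µM 4-OHT, which activates CreER, or DMSO, the solvent, for 24 hours, and were collected on day 6. Each of the 11 library pairs, 1 with 4-OHT and 1 with DMSO, bears the name of its own culture line, so the genotype comparison is between different lines. The flox/+ cultures also carried CreER, received 4-OHT and kept 1 copy without loxP sites. The labels do not give the fetal age, nor say how many fetuses or litters the lines came from.

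Eif4g2, also called DAP5 or NAT1, encodes a translation initiation factor related to the C-terminal part of eIF4G1. It lacks the part that binds the cap-binding protein eIF4E and takes part in non-canonical initiation on a subset of mRNAs. Fetal intestinal epithelium in culture is known to grow as cystic spheroids with Ly6a (Sca-1), to hold few cells with the crypt stem cell marker Lgr5, and to mature towards the budding adult organoid. Goblet cells, one of the secretory lineages, depend on the factor Atoh1 and make the mucus gel.

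Levels below are CPM, counts scaled to each library's depth after TMM scaling over the 22 spheroid libraries. Fold changes are given on the log2 scale, flox/flox over flox/+, as estimate ± standard error (SE), and a gene was called when its adjusted p was under 0.05. Totals ran from 15013890 to 25831825 counts in the 11 libraries. Flox/flox replicate 4, with 24573440 counts, had 13402 genes with at least 1 count, against 17530 to 20684 genes in the others. The cause of this gap was not tested, nor its effect on low levels, such as minima of 0 CPM in flox/flox cultures. The label was checked against adult organoids of the same table, flox/+ with 4-OHT. All 26 genes of a fetal and regenerative list had a higher median in the flox/+ spheroids, 22 of them with no overlap. Of 26 adult crypt stem cell genes, 5 had the higher median in spheroids, and 8 were lower in every spheroid than in every organoid library. The lines differed among themselves: flox/flox replicates 1 and 3 had 92.4 and 193 CPM of the crypt gene Olfm4, against 5.73 CPM or less in the other 4, and flox/+ replicates 4 and 5 had 1106 and 4861 CPM, against 46.7 CPM or less in the other 3. The same 4 lines were the highest of their genotypes with DMSO too.

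The deletion was read first in Eif4g2 itself (ENSMUSG00000005610), which lies on the minus strand of chr7:111067750-111083030 in GRCm38. Flox/flox cultures had from 84.9 to 224 CPM (median 111) and flox/+ cultures 335, 455, 516, 646 and 577 CPM. The groups did not overlap, and the highest flox/flox culture was replicate 6. The log2 fold change was -2.05 ± 0.26 in edgeR, with an adjusted p of 0.00191, and the genotypes differed by -0.0036 with DMSO, where every line was still at 669 CPM or more. Its relatives Eif4g1, the canonical scaffold, and Eif4g3 were at 0.21 and 0.76 (edgeR adjusted p 0.566 and 0.176), and were not called.

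With 4-OHT, 880 of 13718 tested genes (6.41%) differed between the genotypes, 390 higher (2.84%) and 490 lower (3.57%) in flox/flox cultures, with an edgeR quasi-likelihood test and a median log2 fold change of 0.02 over all tested genes. Of the 880, 720 (81.8%) did not overlap between the groups. Over all tested genes 1042 (7.6%) did not overlap, 480 (3.5%) with every flox/flox culture above and 562 (4.1%) with every one below. Between the same lines with DMSO, edgeR called 0 of 14175 genes and DESeq2 called 21, and 1044 had an unadjusted p under 0.05 in edgeR. The changes from each line's own DMSO library were also compared between the genotypes, with the line as a block. In that comparison 2758 of 15032 genes (18.3%) were called, 1236 higher (8.22%) and 1522 lower (10.1%), and the median over all tested genes was -0.06. On simulated counts for this comparison 17 of 139 calls (12.2%) were false, above the 5% that the threshold allows. Within flox/+ lines 4-OHT against DMSO gave 0 calls in the edgeR fit of all 22 libraries. An unadjusted p under 0.05 was found there for 328 of 15032 genes. Eif4g2 was also not called, although every flox/+ line had less of it with 4-OHT than with DMSO. The 0 calls therefore do not show that 4-OHT left flox/+ lines unchanged. Within flox/flox lines 4-OHT against DMSO gave 6425 calls (42.7%), 2946 higher (19.6%) and 3479 lower (23.1%). The comparisons with 4-OHT and with own DMSO share their 4-OHT libraries, so their values stand side by side below and are not counted as 2 lines of evidence. Counts of called list members below are to be read against the shares over all tested genes. These were 2.84% higher and 3.57% lower with 4-OHT, and 8.22% and 10.1% relative to own DMSO.

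The 880 rested unevenly on the lines. The count was 428 without flox/+ replicate 3, 435 without flox/+ replicate 2, 516 without flox/+ replicate 4 and 522 without flox/flox replicate 2. It ran from 616 to 950 without any other line. Line names share prefixes, and S9484 occurred in flox/flox (2 lines) and S9612 in flox/+ (3 lines) alone. With the prefix as a covariate 564 genes were called. Among the 6 libraries of the 2 prefixes found in both genotypes 0 were called in edgeR, although 1616 had an unadjusted p under 0.05. In that smaller fit 879 of the 880 calls were tested, all 879 with the same sign, but its libraries are among the 11.

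**Figure D1:**
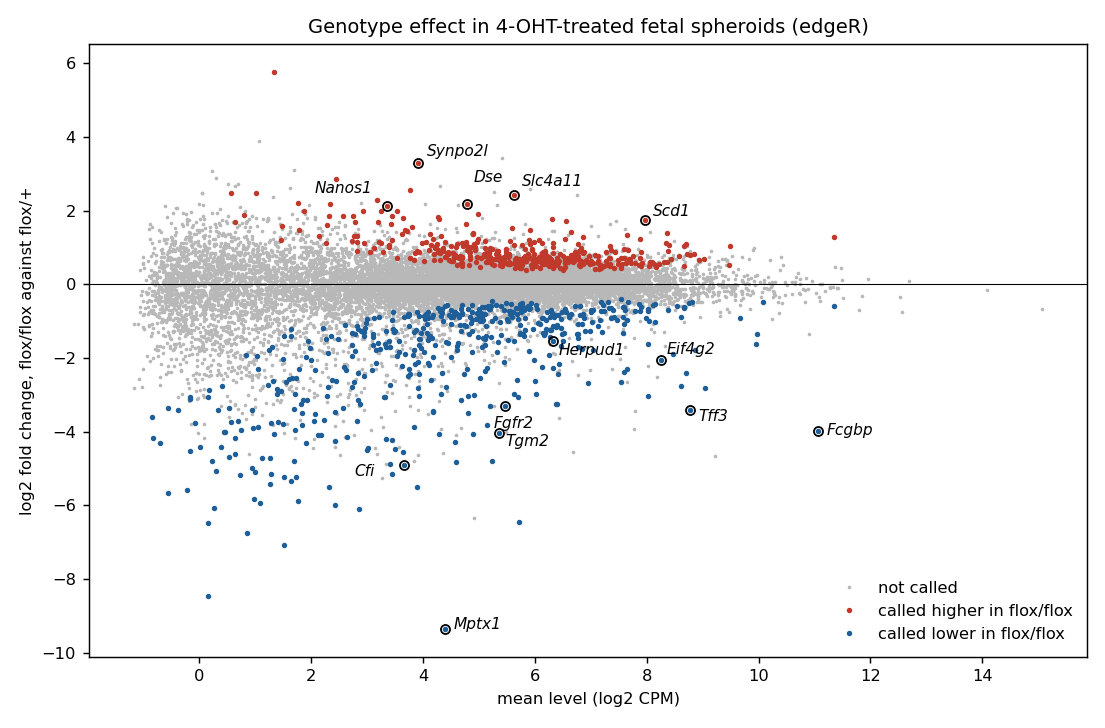
Log2 fold change of flox/flox against flox/+ spheroids with 4-OHT (vertical axis) against mean level in log2 CPM (horizontal axis) for 13718 tested genes, 1 point each. The 390 genes called higher are red, the 490 called lower are blue and the others grey. The falls reach further than the rises: Mptx1 is at -9.36 and Synpo2l, the largest rise named in the text, at 3.30.

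The goblet cell genes were lower together. Of the 20 genes of the goblet list, all tested, 8 fell and 0 rose, with a median of -2.27, and 10 were lower in every flox/flox than in every flox/+ culture, against 4.1% of all tested genes. Fcgbp, a mucus component that binds the mucin network, had from 51.1 to 588 CPM (median 245) in flox/flox and 3152, 3636, 4928, 5345 and 4229 CPM in flox/+ cultures. Its highest flox/flox level, in replicate 3, was far under the lowest flox/+ level. Its log2 fold change was -3.98 ± 0.57 (edgeR adjusted p 0.00391), and -4.06 relative to own DMSO (0.0221). Tff3, the trefoil peptide of goblet cells, had from 21.6 to 207 CPM (median 64.8) against 1221, 706, 896, 728 and 673 CPM. No culture overlapped, and the log2 fold change was -3.41 ± 0.52 (edgeR adjusted p 0.00472).

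Factors known to act in goblet cells fell as well. Atoh1, which specifies secretory cells, had from 0.426 to 13.4 CPM (median 1.94) in flox/flox and 32.3, 17.6, 24.4, 28.5 and 39.1 CPM in flox/+ cultures (-3.03 ± 0.77, edgeR adjusted p 0.0399). Flox/flox replicate 3 was the highest of its group and still under every flox/+ culture. Without it the value was -4.22, and the call was lost without any of 9 lines (adjusted p up to 0.0803, without flox/+ replicate 3). Foxa3, a forkhead factor of goblet cells, was at -2.79 ± 0.36 (edgeR adjusted p 0.00191) and kept its call without each line. Clca1, a secreted protease of mucus, was at -2.81 ± 0.59 (0.0185). The other genes of the list that fell were Agr2, Creb3l4 and Galnt12, the call on Galnt12 being lost without flox/+ replicates 2 or 3 (adjusted p up to 0.0636). Muc2, the gel-forming mucin, had from 0.504 to 162 CPM (median 10.4) against 51.2, 78.8, 93.9, 210.5 and 205 CPM. Flox/flox replicate 3 lay within the flox/+ range, and the difference did not pass (-1.87, edgeR adjusted p 0.399). Against their own DMSO libraries 11 of the 20 fell, with a median of -2.49. In these bulk libraries fewer goblet cells and less RNA per goblet cell cannot be told apart.

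**Figure D2:**
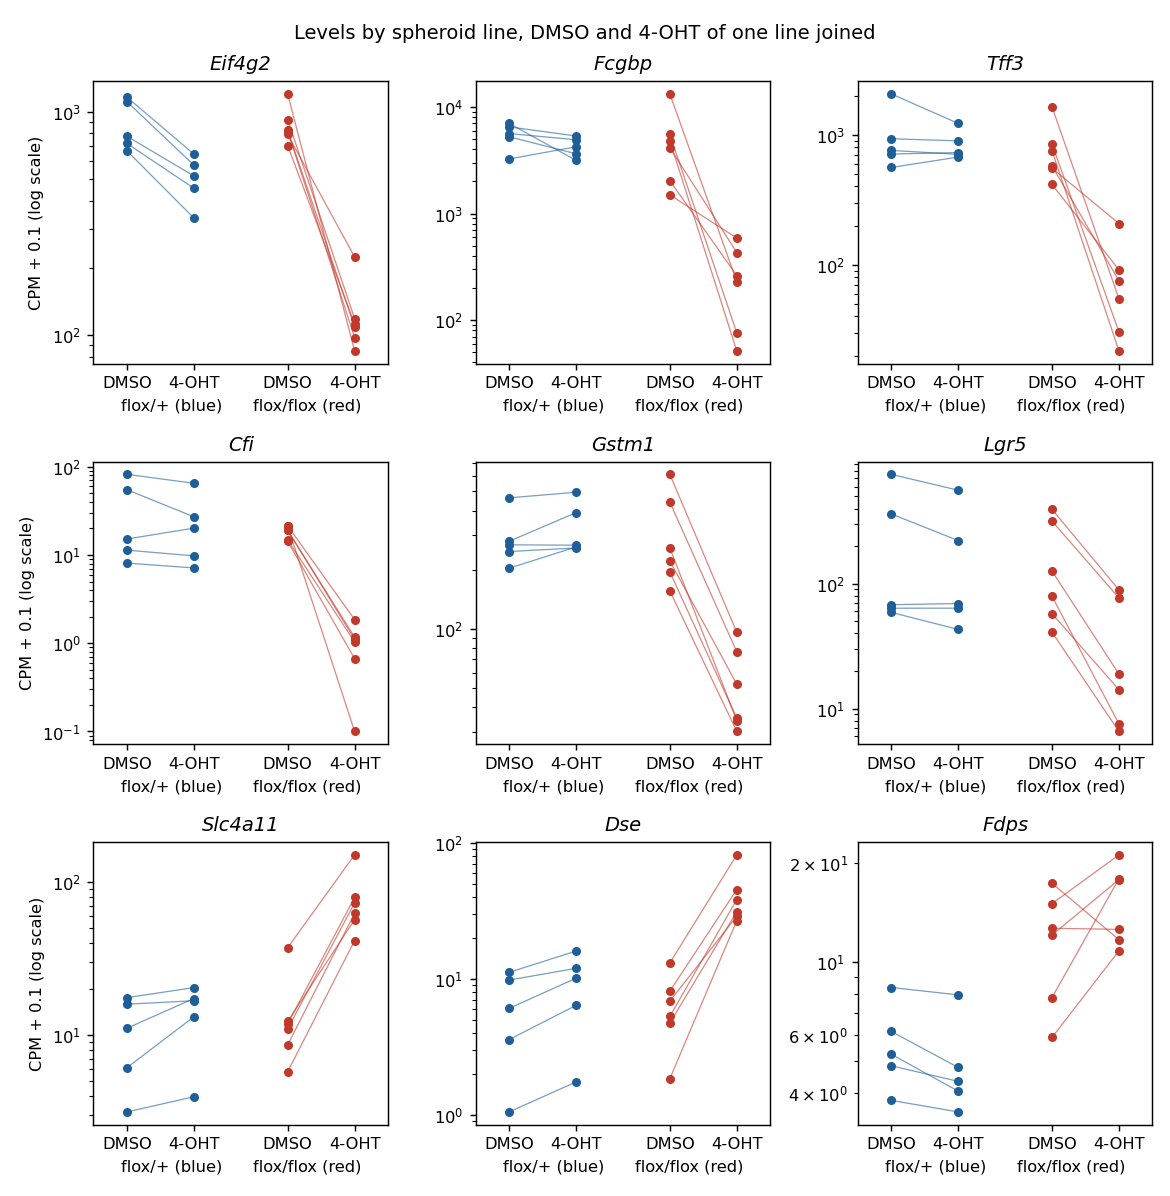
Level of 9 genes (CPM plus 0.1, logarithmic vertical axis) in each spheroid line with DMSO and with 4-OHT, flox/+ in blue (5 lines) and flox/flox in red (6 lines), with the 2 libraries of a line joined. With DMSO the genotypes overlap in all 9 genes. With 4-OHT they overlap in Lgr5 and in none of the other 8.

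The other secretory lineages gave lower medians with wide spread between lines. Of 20 Paneth cell genes 13 were tested and 0 were called (median -2.67), with 4 called lower without flox/flox replicate 3. Of 21 tested enteroendocrine genes 1 fell, Cpe (-1.60), with a median of -2.63. Of 5 tested tuft cell genes 1 fell, Pou2f3 (-2.63), the factor that specifies them. The calls on Cpe and Pou2f3 were lost without 8 and 9 of the 11 lines (adjusted p up to 0.105 and 0.089). In the change from own DMSO 16 of 19 Paneth, 21 of 26 enteroendocrine and 1 of 9 tuft cell genes were called, all lower, against 10.1% of all tested genes. Chga, a hormone granule protein, ranged from 0.361 to 26.6 CPM in flox/flox and from 0.98 to 116 CPM in flox/+ cultures, and Lyz1, the Paneth cell lysozyme, from 0 to 367 and from 2.93 to 999 CPM. Both overlapped between the groups with 4-OHT (-2.13 and -2.02, edgeR adjusted p 0.382 and 0.59). Both passed in the change from own DMSO (-2.56 and -2.89, edgeR adjusted p 0.00446 and 0.0229).

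Crypt stem cell genes fell in part. Of 24 tested members 6 fell and 0 rose, against 3.57% of all tested genes called lower. The median was -0.82, against a median of -0.50 between the same lines with DMSO. In the change from own DMSO 10 of 25 fell and 2 rose, with a median of -0.42. Slc12a2, an ion cotransporter of crypt base cells, had from 347 to 625 CPM (median 516) in flox/flox and 774, 1390.2, 1511, 1677 and 2339 CPM in flox/+ cultures. The groups did not overlap, and the log2 fold change was -1.63 ± 0.25 (edgeR adjusted p 0.00468). Tnfrsf19 (Troy), a Wnt target of stem cells, fell by 4.48, Igfbp4 by 3.48 and Ascl2, the stem cell factor, by 2.64 on the log2 scale. These 3 calls were lost without 7, 8 and 10 of the 11 lines (adjusted p up to 0.0726, 0.0699 and 0.0924). Prom1 and Lgr4 were the other 2, and the call on Lgr4 was lost without 6 lines (adjusted p up to 0.0861). With the prefix covariate 1 of the list was called.

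Lgr5 itself had from 6.47 to 89.1 CPM (median 16.4) in flox/flox and 43, 69.4, 63.7, 221 and 560.0 CPM in flox/+ cultures. The 2 high flox/flox lines lay above 3 flox/+ lines, and the genotype difference was not called (-2.46 ± 0.92, edgeR adjusted p 0.144). Relative to own DMSO it fell by 2.18 on the log2 scale (0.000123): all 6 flox/flox lines were lower with 4-OHT than with DMSO. Olfm4 was at -4.66 between the genotypes (edgeR adjusted p 0.237) and at -4.44 relative to own DMSO (7.24e-05).

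Enterocyte genes were not called between the genotypes (0 of 38 tested, median -0.39). Alpi, the brush border phosphatase, and Fabp1, a fatty acid carrier, had log2 values of -1.38 and -1.92 (edgeR adjusted p 0.607 and 0.538). Against own DMSO 4 of 40 fell, a share near the 10.1% of all tested genes called lower there. The median was -2.37 in that comparison and 0.67 between the same lines with DMSO. Of 26 intestinal identity factors 4 fell: Foxa3, Prdm1 (-2.23), a repressor of the adult programme in immature epithelium, Foxa2 (-1.19), which had from 7.09 to 12.2 CPM (median 9.84) against 21.5, 20.5, 24.1, 19.1 and 26.1 CPM, and Klf5 (-0.60). The call on Klf5 was lost without 8 of the lines (adjusted p up to 0.113). Hnf4a and Cdx2, which hold intestinal identity, were at 0.49 and 0.14 (edgeR adjusted p 0.47 and 0.85), and both signs turned with the prefix covariate (-0.40 and -0.67).

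Complement genes were among the largest falls. C4bp restrains the complement cascade at its C4 step, Cfi is the protease that it assists, and C1ra belongs to the protease pair that starts the classical pathway. Cfi had from 0 to 1.76 CPM (median 0.967) in flox/flox and 7.03, 9.67, 20.1, 27 and 64.9 CPM in flox/+ cultures. Every flox/flox culture was below every flox/+ culture, and the log2 fold change was -4.90 ± 0.83 (edgeR adjusted p 0.00793). C4bp had from 0 to 1.76 CPM (median 0.435) against 8.76, 11.6, 9.13, 40 and 41.2 CPM (-5.15 ± 1.11, edgeR adjusted p 0.0218). Without flox/+ replicate 4 the call on C4bp was lost (adjusted p 0.0523). Of 24 tested genes of the complement and mucosal defence list 5 fell and 0 rose, with a median of -1.19, among them Cfi, C1ra (-2.91, lost without 6 lines, adjusted p up to 0.09), Tlr5 (-2.48), the flagellin receptor, and the chemokine Ccl20. In the change from own DMSO 11 of 29 fell, with a median of -2.21.

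C1ra is also made by stromal cells. The summed level of 14 stromal markers ran from 0.774 to 7.98 CPM in flox/flox and from 13.3 to 190.5 CPM in flox/+ cultures (exact two-sided permutation p 0.00433, adjusted 0.0173 over 8 measures). Flox/+ replicate 2 was the highest and the next was at 22.5 CPM. None of the 4 tested markers was called in edgeR, with 10 of the 14 under the count filter. Their part in the falls was not tested. Without flox/+ replicate 2, C1ra was at -2.98 and was not called (edgeR adjusted p 0.0676), while Cfi and C4bp were at -5.11 and -5.32 and were called (0.0144 and 0.044). Summed immune markers were below 34.1 CPM in every culture (exact permutation p 0.234, adjusted 0.267), and 0 of 2 tested were called. Summed pan-epithelial genes ran from 8288 to 19232 CPM in flox/flox and from 10228 to 15121 CPM in flox/+ cultures (adjusted exact permutation p 0.39). The mitochondrial share of counts was 4.65% ± 0.773 (SD, n = 6) in flox/flox and 7.07% ± 2.44 (SD, n = 5) in flox/+ cultures (exact permutation p 0.0173, adjusted 0.0462).

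Some genes of detoxification also fell. Of 41 tested xenobiotic genes 6 fell and 0 rose, with a median of -0.79, against a median of 0.50 between the same lines with DMSO. Relative to own DMSO 20 of 43 fell, against 10.1% of all tested genes, with a median of -1.90. Gstm1, a glutathione transferase, had from 30 to 96.1 CPM (median 43.7) in flox/flox and 495, 266, 258, 390.0 and 261 CPM in flox/+ cultures. The groups did not overlap, and flox/flox replicate 6, which also had the highest Eif4g2 of its group, was the highest (-2.65 ± 0.33, edgeR adjusted p 0.00191). Cyp2b10, Gstt1 and Ugt2b34 were at -4.19, -3.47 and -1.79. The call on Ugt2b34 was lost without 8 lines (adjusted p up to 0.0961). In the retinoid and alcohol list 1 of 22 fell, a share near the 3.57% of all tested genes. It was Dhrs3 (-0.88), a retinaldehyde reductase. Relative to own DMSO 9 of 26 fell and 2 rose, and the list median between the same lines with DMSO was 0.50.

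Of the other large falls, Mptx1, a secreted pentraxin, had from 0 to 0.228 CPM (median 0) against 7.21, 49.2, 50.9, 50.6 and 64.7 CPM. Its flox/flox level rests on 7 reads in 2 of the 6 libraries, so the fitted value of -9.36 is uncertain in size, and reads shared with its close relative Mptx2 could not be separated. Tgm2, a transglutaminase that crosslinks proteins, had from 2.06 to 8.02 CPM (median 4.67) in flox/flox and 62.9, 74.6, 60.7, 68 and 143 CPM in flox/+ cultures. It was low in every flox/flox line and fell by 4.04 on the log2 scale (edgeR adjusted p 0.000457). Klk1 (-4.87), a kallikrein protease, Sult1c2 (-4.82), a sulfotransferase, Prkar2b (-4.80), a regulatory subunit of protein kinase A, Bhlha15 (-4.55), a factor of mature secretory cells, C1rl (-4.45) and Sorcs2 (-4.28) were also among the 12 largest. The call on Bhlha15 was lost without 7 lines (adjusted p up to 0.0717). Cldn1, a tight junction claudin, was at 0 to 0.413 CPM in flox/flox and at 3.46, 4.48, 8.18, 5.24 and 2.57 CPM in flox/+ cultures (-5.16, edgeR adjusted p 0.00896).

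Of 10 tested genes of a gastric epithelium list 3 fell, Gkn3, a gastrokine, Ctse, the protease cathepsin E, and Capn8, a calpain, with values of -4.49, -2.97 and -2.29. The summed level of the 18 listed genes ran from 57.3 to 162 CPM in flox/flox and from 199.9 to 318 CPM in flox/+ cultures (exact permutation p 0.00433, adjusted 0.0173). With DMSO the sums were 52.8 to 192 CPM and 160.0 to 261 CPM, and these ranges overlapped. The call on Gkn3 was lost without 10 lines (adjusted p up to 0.12), and that on Ctse without flox/+ replicates 2 or 3 (up to 0.0557).

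The largest rise with a level above the set minimum was Synpo2l, an actin-associated protein of striated muscle. It had from 7.37 to 44.6 CPM (median 22.8) in flox/flox and 6.23, 3.26, 2.29, 0.592 and 0.373 CPM in flox/+ cultures (3.30 ± 0.71, edgeR adjusted p 0.0194), and the call was lost without flox/+ replicates 2 or 3 (adjusted p up to 0.0612). Slc4a11, a membrane transporter of the SLC4 family, had from 41.4 to 151 CPM (median 67.8) against 17.2, 20.3, 16.7, 13.1 and 3.84 CPM. Every flox/flox culture was above every flox/+ culture, with flox/flox replicate 6 the highest, and the log2 fold change was 2.43 ± 0.42 (edgeR adjusted p 0.00819). Nanos1, an RNA-binding repressor of translation, had from 10.2 to 21.1 CPM (median 16.2) against 4.61, 3.35, 2.54, 3.17 and 3.80 CPM (2.12 ± 0.25, edgeR adjusted p 0.00159). Vgll3, a cofactor of the TEAD transcription factors, had from 24.2 to 64.2 CPM (median 48.1) against 9.68, 11, 17.4, 17 and 6.08 CPM (1.90 ± 0.33, edgeR adjusted p 0.00789). Both kept their calls without each line. Dubr, Map6, Bend4 and Wasf1 were at 2.00, 1.83, 1.79 and 1.70, and the call on Map6 was lost without 6 lines (adjusted p up to 0.0745).

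A few glycosaminoglycan genes rose. Dse and Dsel are the 2 epimerases that turn chondroitin sulfate into dermatan sulfate, Glce is the matching epimerase of heparan sulfate, and Hs3st1 sulfates heparan chains. Dse had from 26.8 to 82.1 CPM (median 34.8) in flox/flox and 6.28, 15.9, 11.9, 10 and 1.64 CPM in flox/+ cultures. Dsel had from 16.3 to 41 CPM (median 28.2) against 9.05, 7.17, 7.43, 7.82 and 9.25 CPM. Neither gene overlapped, with log2 fold changes of 2.19 ± 0.50 and 1.77 ± 0.24 (edgeR adjusted p 0.0247 and 0.00254). Hs3st1 rose by 1.20 and Glce by 0.44, so 4 of 28 tested genes of the list rose and 0 fell (median 0.30). Against own DMSO 8 of 30 rose and 1 fell. The call on Dse was lost without flox/+ replicates 1, 3 or 4 (adjusted p up to 0.0588) and that on Glce without 9 (up to 0.107).

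Some genes of the fetal, YAP and matrix lists rose. Ereg, a ligand of the EGF receptor, had from 54.3 to 133 CPM (median 78.9) against 25.5, 37.3, 44.5, 30.1 and 12.1 CPM (1.47 ± 0.34, edgeR adjusted p 0.0274). The groups did not overlap. Ereg and Areg (1.10), its close relative, were the 2 of 26 fetal list genes that rose, and 0 fell (median 0.26). Both calls were lost without 6 lines (adjusted p up to 0.0633 and 0.087). Of 26 genes of the YAP and TEAD list 4 rose (median 0.47). They were Ajuba (1.22), Yap1 (0.52), the gene of YAP itself, and again Ereg and Areg, and the count ran from 0 to 4 without each line. Without flox/+ replicate 4 or flox/flox replicate 2 it was 0. The calls on Ajuba and Yap1 were lost without 4 and 6 lines (adjusted p up to 0.0661 and 0.0781). Relative to own DMSO 15 of 26 genes of the YAP and TEAD list rose and 0 fell, and of the fetal list 9 of 26 rose and 1 fell. Of all tested genes 8.22% were called higher there. The medians of these 2 lists were 0.69 and 0.59 relative to own DMSO. Between the same lines with DMSO they were -0.53 and -0.45, flox/flox being the lower. In the plasminogen and matrix list 3 of 28 rose, Plaur (1.35), the urokinase receptor, Itga3 (0.82) and Itga6, and 2 fell, Tgm2 and Mmp15. The calls on Plaur, Itga3 and Itga6 were lost without 9, 3 and 8 lines (adjusted p up to 0.0997, 0.0602 and 0.099). Relative to own DMSO 13 of 30 rose and 3 fell, the falls being near the 10.1% of all tested genes. Among the rises was Plau, urokinase (2.95, edgeR adjusted p 0.000132), which missed the threshold between the genotypes (2.16, 0.0671). The median of the matrix list was 0.23 with 4-OHT, -0.48 with DMSO and 0.63 relative to own DMSO.

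Among markers of the fetal state, Ly6a had from 77.6 to 541 CPM (median 178) in flox/flox and 766, 470.3, 475, 235 and 75.5 CPM in flox/+ cultures, and Clu, a revival stem cell marker, was at -0.77. Neither was called (edgeR adjusted p 0.582 and 0.378), also not relative to own DMSO (0.656 and 0.807). Gja1, a gap junction protein, was at 1.30, short of a call (edgeR adjusted p 0.102). Relative to own DMSO it rose (0.67, edgeR adjusted p 0.039). The sign of Clu turned with the prefix covariate (0.51).

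**Figure D3:**
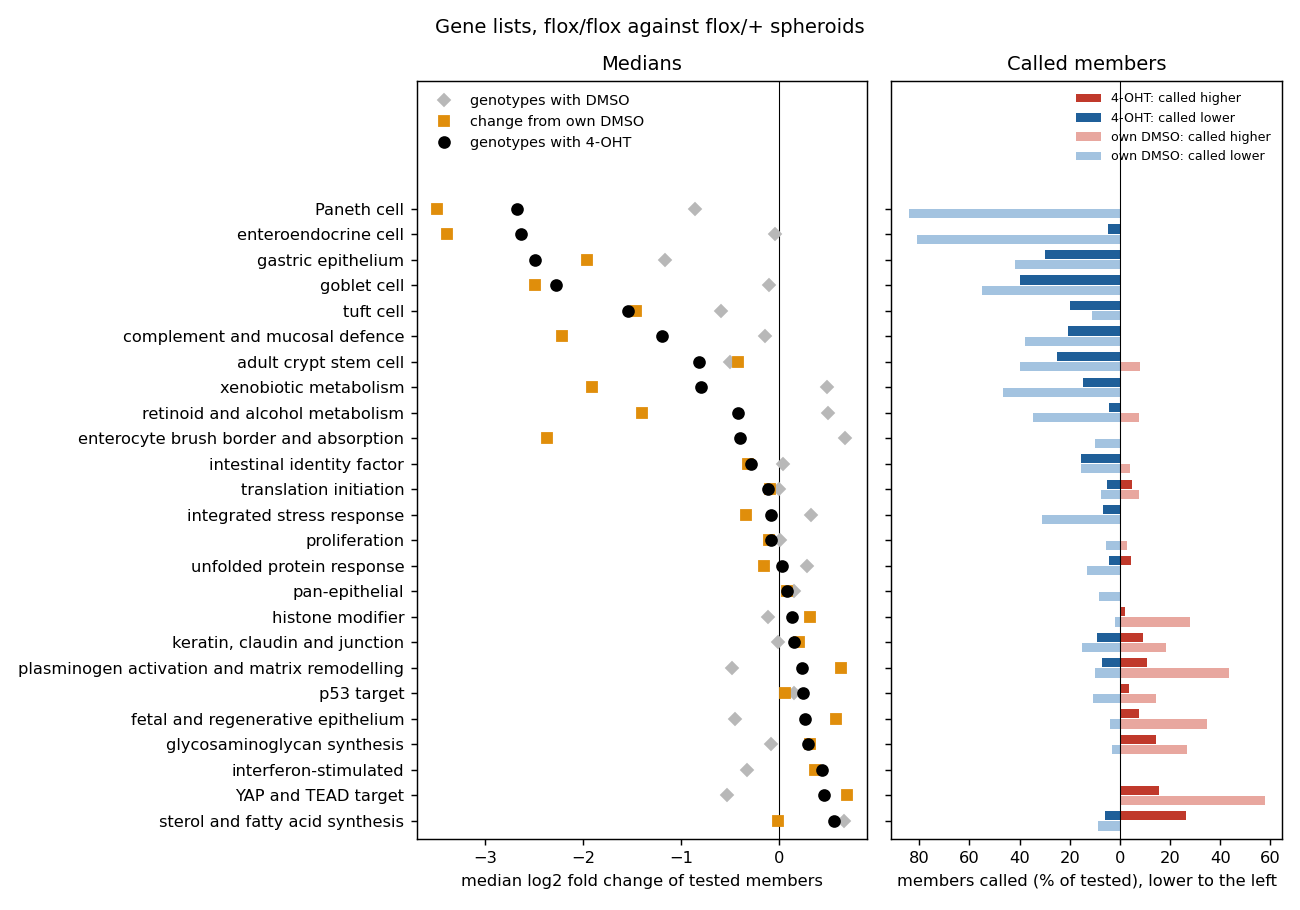
Left, the median log2 fold change of the tested members of 25 gene lists for flox/flox against flox/+ with 4-OHT (black), with DMSO (grey) and as change from own DMSO (orange). Right, the share of tested members called higher (drawn to the right) or lower (to the left) with 4-OHT and relative to own DMSO. Goblet genes are low in black and near 0 in grey, and sterol genes have like medians in both.

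In sterol and fatty acid synthesis the median difference between the genotypes was alike with 4-OHT and with DMSO. Of 34 tested genes 9 rose and 2 fell, against 2.84% and 3.57% of all tested genes. The median was 0.57, against 0.66 between the same lines with DMSO and -0.0035 relative to own DMSO, where 0 rose and 3 fell. Fdps, the farnesyl diphosphate synthase of the cholesterol pathway, had from 10.7 to 21 CPM (median 15.1) in flox/flox and 4.67, 7.83, 3.94, 4.23 and 3.39 CPM in flox/+ cultures with 4-OHT. The groups did not overlap (1.65 ± 0.28, edgeR adjusted p 0.00766). With DMSO the same lines were already apart by 1.09, with overlap, and relative to own DMSO the value was 0.65 (0.137). Scd1 and Scd2, desaturases of fatty acids, were at 1.75 and 1.30 with 4-OHT and at 1.04 and 1.11 with DMSO. Neither passed relative to own DMSO (edgeR adjusted p 0.263 and 0.549). The call on Scd2 was lost without flox/+ replicates 4 or 5 (adjusted p up to 0.0587). Fads1, which desaturates polyunsaturated fatty acids, was 1 of the 2 that fell. Plod2, a collagen lysyl hydroxylase among the 12 largest rises, was apart by 0.98 with DMSO and further, by 1.79, with 4-OHT. Relative to own DMSO it was at 0.96 and was not called (edgeR adjusted p 0.152). Line and genotype cannot be told apart in these values.

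**Figure D4:**
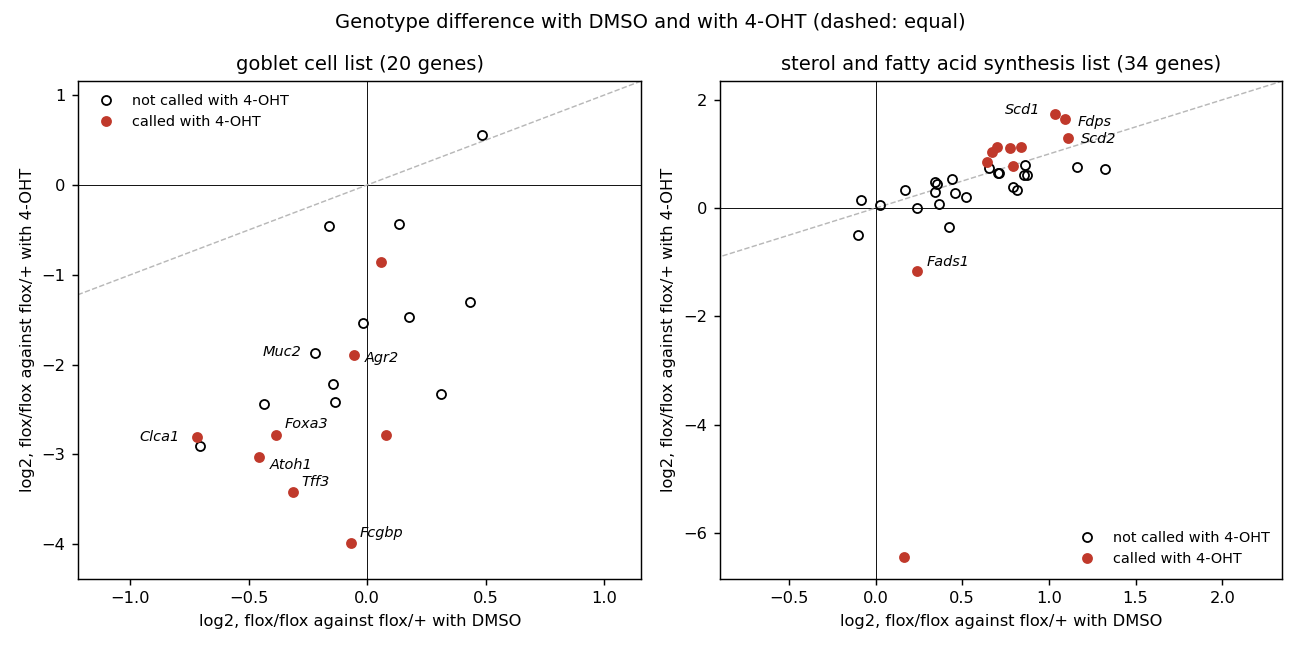
Log2 fold change of flox/flox against flox/+ with DMSO (horizontal axis) and with 4-OHT (vertical axis), 1 point a gene, for the 20 goblet genes (left) and the 34 sterol and fatty acid genes (right). Filled points were called with 4-OHT and the dashed line marks equal values. Called goblet genes lie well below the line. Called sterol genes lie near it, apart from the 2 that fell, Fads1 among them.

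Stress and growth lists each gave 0 to 2 calls in a direction between the genotypes. Of all tested genes 2.84% were called higher there and 3.57% lower, so counts this small are not read as a result. Of 40 translation initiation genes 2 rose, Eif1 (0.82) and Eif5 (0.53), which act in start codon choice, and 2 fell, Pabpc1 (-0.59) and Eif4b (-0.47). The 4 calls were lost without 4, 8, 9 and 10 lines (adjusted p up to 0.0669, 0.0922, 0.0694 and 0.115). Of 29 integrated stress response genes 2 fell, Asns (-0.88) and Pycr1 (-1.27). Relative to own DMSO 9 of the 29 fell and 0 rose, against 10.1% of all tested genes called lower there. The call on Pycr1 was lost without 10 lines (adjusted p up to 0.084). Of 23 unfolded protein response genes 1 fell and 1 rose. Herpud1, a component of the degradation machinery of the endoplasmic reticulum, had from 38.6 to 46.2 CPM (median 42.1) against 155, 108, 131, 107 and 104 CPM, with no overlap (-1.53 ± 0.13, edgeR adjusted p 0.000457). Hyou1, a chaperone, was at 0.77. Proliferation genes gave 0 calls of 35 (median -0.08), interferon-stimulated genes 0 of 25, and p53 targets 1 of 28, Tnfrsf10b (0.99, lost without 9 lines, adjusted p up to 0.0961). Mki67 and Cdkn1a were at -0.038 and -0.064 (edgeR adjusted p 0.989 and 0.921), and the sign of Mki67 turned without flox/+ replicate 5 (0.94), whose level of 344 CPM was the highest of its group.

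Histone modifier genes included the targets of the inhibitor A-485, used elsewhere in the series. Ep300 had from 115 to 357 CPM (median 214) in flox/flox and 114, 81.4, 87.8, 131 and 162 CPM in flox/+ cultures. The groups overlapped, and Ep300 and Crebbp were at 0.92 and 0.97 between the genotypes, short of a call (edgeR adjusted p 0.0655 and 0.193). Relative to own DMSO they rose by 1.20 and 1.42 (0.000795 and 0.00455). Kmt2d was at 0.35 and 0.60 in these comparisons and was called in neither (0.617 and 0.208). Of 50 listed modifiers 1 rose between the genotypes, a share near the 2.84% of all tested genes. It was Kdm4b (0.75, lost without 7 lines, adjusted p up to 0.102). Relative to own DMSO 14 rose and 1 fell, against 8.22% of all tested genes called higher.

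Promoters of 2 genes that fell and 2 that rose are shown because the promoters of genes that fell and of those that rose had different median base compositions. They are RefSeq windows in GRCm38.p6, from 250 bases before to 50 bases after the start, read along the gene. Capitals mark the E-box CAGCTG and the ETS-type motif CCGGAAG, each searched on both strands.
Fcgbp, chr7:28070986-28071285, plus strand: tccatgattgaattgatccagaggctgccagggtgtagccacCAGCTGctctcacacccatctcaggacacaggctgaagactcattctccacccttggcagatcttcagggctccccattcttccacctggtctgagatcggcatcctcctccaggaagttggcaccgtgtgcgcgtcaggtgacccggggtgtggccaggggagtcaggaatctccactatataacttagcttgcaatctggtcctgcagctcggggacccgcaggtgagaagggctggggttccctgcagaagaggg
Atoh1, chr6:64728875-64729174, plus strand: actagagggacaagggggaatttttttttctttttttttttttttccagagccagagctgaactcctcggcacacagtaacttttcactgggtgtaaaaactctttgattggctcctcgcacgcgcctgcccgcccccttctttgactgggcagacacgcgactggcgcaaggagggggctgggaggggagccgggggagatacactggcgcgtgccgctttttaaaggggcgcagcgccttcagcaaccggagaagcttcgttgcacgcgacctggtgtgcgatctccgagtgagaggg
Dse, chr10:34207186-34207485, minus strand: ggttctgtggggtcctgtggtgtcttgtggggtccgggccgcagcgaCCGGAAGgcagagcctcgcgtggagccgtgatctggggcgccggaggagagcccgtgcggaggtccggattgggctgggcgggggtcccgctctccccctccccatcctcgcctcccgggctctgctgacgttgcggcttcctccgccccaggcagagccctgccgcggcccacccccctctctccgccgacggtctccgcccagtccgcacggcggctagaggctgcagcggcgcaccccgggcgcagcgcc
Nanos1, chr19:60755737-60756036, plus strand: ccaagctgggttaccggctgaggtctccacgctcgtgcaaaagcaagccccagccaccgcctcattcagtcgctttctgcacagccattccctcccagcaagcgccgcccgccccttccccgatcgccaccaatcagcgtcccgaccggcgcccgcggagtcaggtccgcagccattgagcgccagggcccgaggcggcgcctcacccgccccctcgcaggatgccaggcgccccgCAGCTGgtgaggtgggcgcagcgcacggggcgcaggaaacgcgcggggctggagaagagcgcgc
The windows hold 7 CpG dinucleotides for Fcgbp, 20 for Atoh1, 33 for Dse and 34 for Nanos1. The window of Dse starts 480 bases from the gene start in the gene table. Of the tested genes 10010 matched a promoter by symbol, with a median of 21 CpG dinucleotides and 61% GC. The 357 matched genes that were called lower had medians of 16 and 59.7%, and the 299 called higher 26 and 65.3%. These medians used the first window of each gene, while for motifs a gene counted when any of its windows held the letters. Of 20 motifs searched, CCGGAAG was found for 20.4% of all matched genes, 7% of those lower and 18.1% of those higher. The AP-1 motif TGANTCA was found for 6.36%, 10.9% and 3.34%, and the box TATAAA for 8.84%, 12.9% and 7.02%. CAGCTG was found for 17.7%, 22.7% and 19.1%. These 4 were picked after the shares were seen, overlaps with other motifs were not removed, and a match is a description of the letters.

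In adult small intestinal organoids of the same genotypes, medium and treatment (4 flox/flox and 4 flox/+ libraries), 6289 of 13706 genes (45.9%) were called. The organoids share no library with the spheroids, and whether their libraries came from separate lines or animals is not established here. Numbers of calls depend on the spread between libraries too, so they do not rank the sizes of the effects. Of 12836 genes tested in both, 835 were called in spheroids and 5884 in organoids, and 673 in both, which is 80.6% of the spheroid calls and 11.4% of the organoid calls. Organoids called 45.8% of all 12836. Of the 673, 664 changed in the same direction and 9 in the opposite one. The median absolute log2 fold change of the 673 was 0.93 in spheroids and 0.69 in organoids. Since these genes had to pass both tests, the medians do not rank the effects either. Across the 12836 genes the log2 fold changes had a Pearson r of 0.658 and a Spearman rho of 0.591, genes not being independent replicates.

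The test of the difference itself called 8 of 15043 genes (0.0532%) in edgeR, 3 with the higher value in spheroids (0.0199%) and 5 with the lower (0.0332%). An unadjusted p under 0.05 was found for 1294 genes, and DESeq2 called 135. Clca1 was lower by 2.81 on the log2 scale in spheroids and higher by 1.95 in organoids, a difference of -4.76 (edgeR adjusted p 0.0301). Fgfr2, an epithelial fibroblast growth factor receptor, had from 3.26 to 16.4 CPM (median 8.20) in flox/flox and 44.3, 99.1, 85.4, 97.3 and 95.4 CPM in flox/+ spheroids, with no overlap. It fell by 3.30 in spheroids and was at -0.21 in organoids (difference -3.10, edgeR adjusted p 0.0301). Zmat3, a p53 target, and Celsr1, a planar polarity cadherin, rose in organoids (2.09 and 2.18) and were at 0.61 and 0.17 in spheroids, not called. Chn2, Fgfr4 and Tubb2b fell in organoids (-1.24, -0.90 and -2.01) and were at -0.19, 0.46 and 0.032 in spheroids, also not called. Mpp7, a polarity scaffold, fell by 0.74 in spheroids and rose by 0.27 in organoids. The adjusted p of the 8 ran from 0.0268 to 0.0301.

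Among the goblet genes, 2 rose and 10 fell of 20 in organoids, with a median of -0.33 against -2.27 in spheroids. Fcgbp and Tff3 were at -0.44 and -0.55 in organoids, and the tests of their differences missed the threshold (edgeR adjusted p 0.068 and 0.0924). Of the list Clca1 alone was called in that test. Proliferation genes fell in organoids (22 of 35, against 23.6% of all tested genes called lower there). The p53 targets rose there (19 of 28, against 22.3% called higher). The test of the difference called 0 and 1 of these lists in either direction, the 1 being Zmat3.

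**Figure D5:**
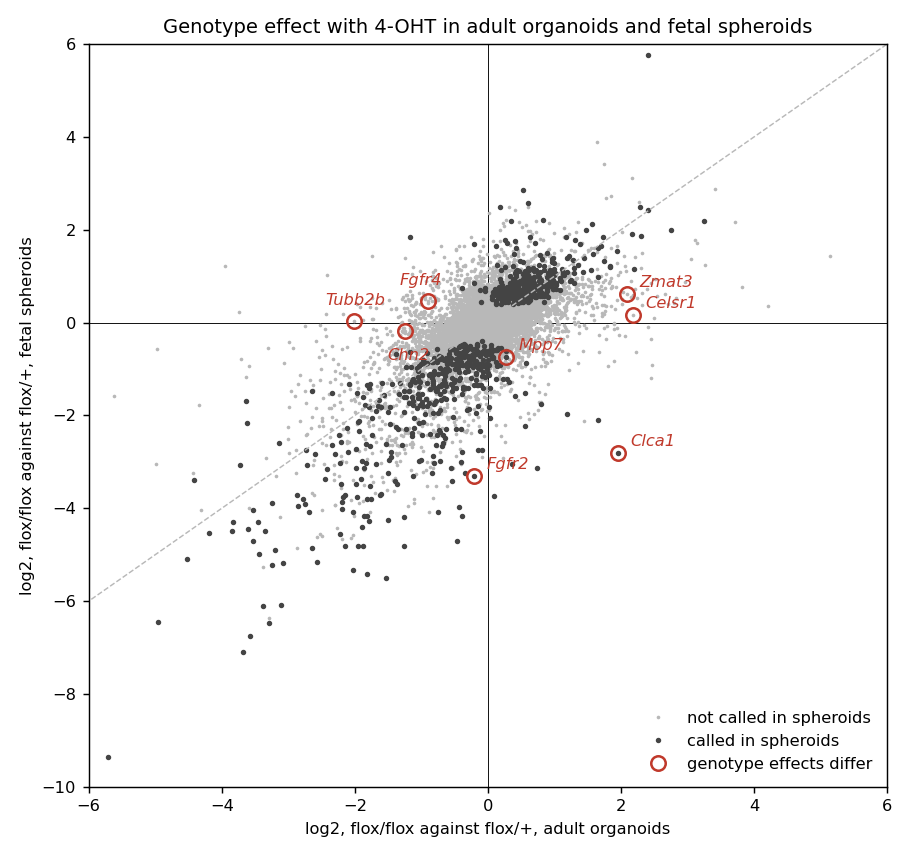
Log2 fold change of flox/flox against flox/+ with 4-OHT in adult organoids (horizontal axis) and in fetal spheroids (vertical axis), 1 point a gene, for the 12836 genes tested in both. Dark points were called in spheroids, the dashed line marks equal values, and red circles mark the 8 genes whose genotype effect differed between the cultures. Most dark points lie in the lower left or upper right, and of the circled genes Clca1 and Mpp7 lie in the lower right.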

How the data were processed

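The values are raw counts of reads per gene that the authors deposited without normalization, per the labels, in 1 column per library. All values were whole numbers. Libraries were poly(A)-selected and made with a dUTP protocol. HISAT2 2.0.5, GRCm38 and mm10 are named, without roles, in the submitters' processing notes. The counting program, annotation and strand setting are not given in the sources used here, so overlapping and near-identical genes are uncertain. Of the 92 libraries, 30 were used: the 22 spheroid libraries and 8 organoid libraries with 4-OHT. Depth ran from 14790237 to 30878778 counts.

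Genotypes were compared in edgeR 4.0.16 under R 4.3.3 on the 11 libraries with 4-OHT, after TMM scaling and a filterByExpr filter by group, with robust quasi-likelihood F-tests and p-values adjusted by Benjamini-Hochberg over the genes tested. Each line enters once. An earlier fit of all 22 spheroid libraries holds 2 libraries of each line and is an alternative here. The change from own DMSO was the treatment by genotype term with the line as a block, since residuals of the same line correlated by 0.402 to 0.887. DESeq2 1.42.0 served as an alternative. On simulated counts the test of genotypes with 4-OHT recovered 23 of 100 2-fold and 64 of 100 4-fold changes, with 1 false of 88 calls. Those counts were drawn independently for each library, with no differences tied to line name prefixes. They therefore cannot show how many of the calls on the real libraries are false. The change from own DMSO recovered 47 and 75 of 100, with 17 false of 139, so its counts of calls are less exact. For per-library sums the exact permutation test, two-sided, ran over 462 arrangements. No pair of libraries in a group was a duplicate (smallest chi-square per degree of freedom 19.8).

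Genes named are Eif4g2, the 12 largest rises and 12 largest falls that were called, did not overlap and had a mean of log2 CPM 3 or above, 20 set markers and up to 4 called members a list. Some genes under this rule are not reported here. Other names were chosen after their values were seen. The members, lists and tests were chosen with earlier results of these data known. The labels do not say whether lines came from separate animals, so p-values measure the spread between these lines.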

Additional observations from a re-analysis of the deposited data

Results flagged for a closer look

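A library that stood far from the rest of its group was looked for with Dixon's ratio in 218 sets of values, of which 31 passed. The nominal rate is about 1 in 20. It is no exact reference here, since the sets were mostly unlogged levels of genes named in the text, from the same 11 libraries. Flox/flox replicate 3 accounted for 10 of the 31. It was the highest of its group in Muc2 (162 CPM), Lyz1 (367 CPM), Chga (26.6 CPM), Atoh1 (13.4 CPM), Prdm1 (5.52 CPM), Tnfrsf19 (3.87 CPM) and Klk1 (2.96 CPM). It was the lowest in Plod2 (61.1 CPM), Hs3st1 (54.9 CPM) and Zmat3 (258 CPM). Without this line 12 goblet genes were called lower in place of 8, and Atoh1 was at -4.22 in place of -3.03. The cause was not tested.

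Flox/flox replicate 6 kept the most Eif4g2 of its group (224 CPM, the next being 119 CPM). It was also the highest of its group in Sult1c2 (5.63 CPM), Gkn3 (3.41 CPM) and Slc4a11 (151 CPM) and the lowest in Eif1 (327 CPM). Between the genotypes Sult1c2 and Gkn3 were called lower in flox/flox cultures, and Slc4a11 and Eif1 higher. Any relation of these levels to that of Eif4g2 was not tested. Without flox/flox replicate 6, 950 genes were called in place of 880.

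Flox/+ replicate 5 was the highest of its group in Olfm4 (4861 CPM), Mki67 (344 CPM), Fabp1 (225 CPM), Igfbp4 (174 CPM), Tgm2 (143 CPM) and Foxa3 (56.2 CPM) and the lowest in Zmat3 (152 CPM). Flox/+ replicate 1 was the lowest in Mptx1 (7.21 CPM) and Fgfr2 (44.3 CPM) and the highest in Pabpc1 (3919 CPM). Flox/+ replicate 2 was the highest in the summed stromal markers (190.5 CPM) and in Fdps (7.83 CPM). Flox/flox replicate 4 was the highest in Prkar2b (7.99 CPM) and Dse (82.1 CPM), replicate 1 in Fabp1 (68.4 CPM) and replicate 5 in Glce (76.8 CPM). Replicate 4 also had the fewest genes with any count (13402), although it was the deepest flox/flox library with 4-OHT. Without it 813 genes were called in place of 880.

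The genotype effect differed between spheroids and adult organoids, by the test of that difference in edgeR, in Clca1 (-4.76), Fgfr2 (-3.10), Celsr1 (-2.02), Zmat3 (-1.49), Mpp7 (-1.02), Chn2 (1.05), Fgfr4 (1.35) and Tubb2b (2.03), as log2 values of spheroids minus organoids. The response to 4-OHT differed between flox/flox and flox/+ lines in 2758 genes by the treatment by genotype term.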

How the results depend on the processing

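The genotype count of 880 with 4-OHT was 1709 with the DESeq2 Wald test, 1577 in the fit of all 22 spheroid libraries, 564 with the line name prefix as a covariate and 0 among the 6 libraries with shared prefixes. DESeq2 size factors gave 873 and no low-count filter 696, and leaving out 1 line gave 428 to 950. Of the 79 called genes named above, 34 lost the call without at least 1 line and none turned its sign. With the prefix as a covariate 34 of the 79 lost the call, with the replicate number as a block 51 and with no low-count filter 23. DESeq2 size factors took the call from 1. Among the 6 libraries with shared prefixes all 79 lost it. These genes were chosen as called with all lines, many with no overlap, so their stable sign was largely fixed in advance.

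Same-numbered flox/flox and flox/+ replicates are different lines. Their residuals correlated by -0.420 to 0.519, so the numbers do not pair them, and with the replicate number as a block 140 genes were called. In the change from own DMSO the line pairs the libraries. Without that block, with 4 group means, 243 genes were called in place of 2758, and leaving out 1 line gave 1900 to 3352. With DMSO the Wald test called 21 genes in place of 0. In the test against organoids it called 135 and the fit with no filter 5, in place of 8.

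Some values that were not called turned sign. With the prefix as a covariate and among the shared prefixes, in this order, Clu was at 0.51 and 0.41, Cdkn1a at 0.086 and 0.13, Kmt2d at -0.17 and -0.38, Hnf4a at -0.40 and -0.35, Cdx2 at -0.67 and -0.60 and Celsr1 at -0.19 and -0.17. Cdkn1a was at 0.057 with the replicate block. Leaving out 1 line, Mki67 ran from -0.75 to 0.94, Cdkn1a from -0.26 to 0.047, Cdx2 from -0.049 to 0.28 and Tubb2b from -0.12 to 0.21. Relative to own DMSO, Clu ran from -0.34 to 0.024, Mki67 from -0.41 to 0.44, Hnf4a from -0.096 to 0.24, Eif4g1 from -0.083 to 0.21 and Chn2 from -0.11 to 0.025, and Mki67 was at -0.044 with 4 group means. The causes were not tested. A covariate for Y-linked transcripts was planned and not run, since Ddx3y was above 1 CPM in all 22 libraries. With 5 and 6 lines, genes that vary between lines, such as Olfm4, had SEs above 2 on the log2 scale.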
